A study of Mus musculus with 30 samples.

Results

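Ifi44, Ifi44l, Ifi27l2a and Rtp4 are interferon-stimulated genes that were picked for being strongly lower in Rubcn knockout than in wild-type dendritic cells. They are 4 of 25611 gene rows in the count table, and 3 of them (Ifi44, Ifi27l2a and Rtp4) were among the 14808 genes counted well enough to be tested. Ifi44l was hardly counted in any library, so the description under which it was picked could not be shown for it. Because the knockout and wild-type levels chose these genes, every knockout against wild-type value given for them is a description without a test. The treatment responses were tested, although the knockout and wild-type levels that enter them are also those that chose the genes.

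The cells were mouse bone marrow cells differentiated to dendritic cells with FLT3L at 200 ng/ml for 6 to 7 days, from wild-type (WT) mice or from mice labelled Rubcn KO. Rubcn encodes Rubicon, a protein needed when LC3 is attached to phagosomes, a process of non-canonical autophagy. Each genotype was left untreated, given OVA protein for 30 min or 4 h, or fed apoptotic Jurkat cells for the same times. Jurkat is an established line of human leukaemic T cells. This made 10 groups of 3 libraries, 30 in all. The labels do not say whether the 3 libraries of a group came from separate mice or cultures, so p-values measure only the spread between these libraries.

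Type I interferon binds a receptor made of Ifnar1 and Ifnar2, and the kinases Jak1 and Tyk2 then pass the signal to transcription factors, Stat2 and Irf9 among them. These bind interferon-responsive promoters and switch on a large set of genes. Dendritic cells keep a low level of this programme at rest, and plasmacytoid dendritic cells are known for making much interferon. Ifi44 and its relative Ifi44l encode proteins with a GTP-binding domain, Ifi27l2a encodes a small hydrophobic membrane protein, and Rtp4 encodes a receptor-transporting protein that also acts against some viruses.

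The promoters are shown because the 2 genes lie next to each other and yet Ifi44l was hardly counted. RefSeq's promoter table for GRCm38.p6, the assembly also called mm10, held 2 of the 4 genes. Each stretch runs 5′ to 3′ on the gene's own strand from 250 to 31 bases before the annotated start. Capitals mark matches, on either strand, to AANNGAAA, a core bound by interferon regulatory factors.
Ifi44, chr3:151749941-151750160, minus strand: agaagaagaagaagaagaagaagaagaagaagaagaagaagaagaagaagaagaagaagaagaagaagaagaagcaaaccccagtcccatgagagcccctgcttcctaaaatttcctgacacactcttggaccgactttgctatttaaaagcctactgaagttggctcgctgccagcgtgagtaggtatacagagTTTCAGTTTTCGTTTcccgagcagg
Ifi44l, chr3:151762922-151763141, minus strand: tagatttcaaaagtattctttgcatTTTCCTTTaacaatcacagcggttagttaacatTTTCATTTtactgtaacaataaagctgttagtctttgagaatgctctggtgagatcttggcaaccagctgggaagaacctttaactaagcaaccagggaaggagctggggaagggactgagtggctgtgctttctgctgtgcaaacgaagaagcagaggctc
Ifi44 held 2 matches that share a base, at 55 to 48 and 48 to 41 bases before the start. Ifi44l also held 2 matches, farther out, at 225 to 218 and 192 to 185 bases before the start. Such a match is common: 19.2% of 32851 promoter windows of the same 220 bases held at least 1. The longer repeat of GAAA, any 2 bases and GAAA again, found in 2.63% of the windows, was in neither.

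In the deposited mm10 coordinates, Ifi44 (Entrez gene 99899) covered chromosome 3 from 151730923 to 151749959 and Ifi44l (15061) covered 151758737 to 151762891, both on the minus strand. Ifi27l2a (76933) covered chromosome 12 from 103433873 to 103443680 on the minus strand. That interval contains Ifi27, on the plus strand from 103434189 to 103440245. The GENCODE annotation places Ifi27l2a at 103442167 to 103443680 and Ifi27 at 103434211 to 103440239, which do not overlap. The library kit does not mark strand, so reads from any exons that the counting gave to both genes cannot be told apart. Which exons were counted was not given in the sources used here, and the Ifi27l2a counts are uncertain to that extent. Rtp4 (67775) covered chromosome 16 from 23609919 to 23614222 on the plus strand. GENCODE places Rtp4 at 23520291 to 23614222, a longer interval than the deposited one. Of the 50-base exon windows of its 5 GENCODE transcripts, 247 of 2123 (11.6%) were also found in the gene model Gm45338, which overlaps Rtp4. That model had 0 rows in the count table, and reads from it cannot be told apart from Rtp4 reads where the sequence is shared.

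Rubcn, the targeted gene, was at 98.9 ± 4.96 CPM in the untreated WT libraries and at 72.8 ± 2.74 CPM in the untreated KO libraries (SD, n = 3 each). CPM are counts per 1000000 counts of the library, on library sizes scaled by edgeR's TMM method. It was lower by 0.44 on the log2 scale (FDR = 1.69e-07, edgeR) and was lower in KO in all 5 conditions, without being absent. FDR here is the Benjamini-Hochberg adjusted p of edgeR's quasi-likelihood test over the 14808 genes, and a gene was called at 0.05. Library totals ran from 9.73 to 51.6 M counts (M is 1000000) with a median of 44.9 M counts. The shallowest was replicate 3 of KO OVA 30 min, and the next lowest held 38.7 M counts.

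One library stood apart for interferon-stimulated genes. In the KO Jurkat 30 min group, replicate 1 was the highest of the 3 libraries for 40 of 40 other interferon-stimulated genes in a list of this programme. Calls and gene counts for KO at Jurkat 30 min are therefore given with and without it. Its summed level of T-lineage marker genes was 142 CPM, against 142 and 127 CPM in replicates 2 and 3, and its summed plasmacytoid marker level was 1901 CPM, against 1833 and 1826 CPM. It was the lowest of the 3 for monocyte and macrophage markers (864 against 948 and 992 CPM). The same held for markers of conventional dendritic cells type 2, stroma, neutrophils and general dendritic cells. For basophil and mast cell markers and B cell markers it was the highest, and for conventional type 1 markers it lay between.

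Ifi44 had a wider range over the groups than Ifi27l2a and Rtp4. In untreated WT cells its 3 libraries were at 29.7, 21.7 and 25.8 CPM, and in untreated KO cells at 3.003, 2.67 and 3.11 CPM. The lowest WT library was thus well above the highest KO library, and KO was at 11.4% of WT, a log2 difference of -3.13 (SE 0.234). After 4 h with OVA, WT libraries were at 53.9, 52.4 and 55.2 CPM and KO libraries at 8.05, 7.94 and 7.44 CPM. After 4 h with Jurkat cells, WT libraries reached 325.0, 398.2 and 353.6 CPM and KO libraries 115.5, 110.4 and 123.7 CPM. The groups did not overlap at either time, and KO was at 14.5% and 32.5% of WT.

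At 30 min the Ifi44 levels in WT overlapped with the untreated ones, with 22.7, 19.7 and 25.1 CPM under OVA and 27.0, 24.9 and 20.5 CPM under Jurkat cells. In KO it was at 2.98, 2.10 and 3.09 CPM under OVA. Under Jurkat cells the KO libraries were at 10.6, 3.28 and 3.80 CPM, so replicate 1 lay far above the other two. The coefficient of variation in that group was 69.1%, against a median of 11.1% over the 10 groups. The KO against WT log2 difference at Jurkat 30 min was -2.03 (SE 0.211) with that library and -2.76 without it, beside -3.11 (SE 0.266) at OVA 30 min.

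Ordered by mean, Ifi44 was highest in WT Jurkat 4 h (358.9 CPM), then KO Jurkat 4 h (116.5 CPM) and WT OVA 4 h (53.9 CPM). The WT untreated, Jurkat 30 min and OVA 30 min groups came next and overlapped with their neighbours in that order. All 4 other KO groups lay below every WT group, down to 2.72 CPM in KO OVA 30 min, which overlapped with KO untreated. The highest group mean was 131.9 times the lowest.

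Ifi44l, the neighbouring gene, had 22 counts in all over the 30 libraries, at most 5 in any one, which was 0.150 CPM. In WT Jurkat 4 h its libraries held 2, 3 and 5 counts, and in KO Jurkat 4 h 2, 0 and 2. These groups overlapped, and the gene did not pass the filter on low counts. Of the 22 counts, 21 fell in the 12 libraries given Jurkat cells and 1 in the other 18. In 5 groups, among them both untreated groups, no read was counted, which allows a level of up to 0.0214 CPM for the WT and 0.0206 CPM for the KO untreated group (3 counts over the group, counting error only). A difference between the genotypes was not detectable at this depth. The GENCODE annotation tags Ifi44l as lying on a reference genome error.

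Ifi27l2a differed between the genotypes by a ratio that varied little over the conditions. Untreated WT libraries were at 172.0, 162.8 and 173.8 CPM and untreated KO libraries at 53.4, 65.9 and 55.7 CPM. At OVA 30 min the libraries were at 149.9, 142.2 and 183.4 CPM in WT and at 65.3, 59.3 and 65.0 CPM in KO. At Jurkat 30 min they were at 205.5, 187.8 and 155.0 CPM in WT and at 71.5, 70.6 and 68.3 CPM in KO. No KO library reached a WT library of its own condition in these 3 comparisons.

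At OVA 4 h Ifi27l2a was at 223.8, 245.9 and 224.1 CPM in WT and at 69.2, 82.3 and 72.1 CPM in KO. At Jurkat 4 h it was at 359.5, 444.4 and 419.8 CPM in WT and at 176.5, 165.1 and 169.5 CPM in KO. KO Jurkat 4 h therefore overlapped with untreated WT and came after WT Jurkat 30 min in the order of means. Over the 5 conditions KO was at 32.2% to 41.8% of WT, with log2 differences from -1.63 to -1.26. The highest group mean was 6.99 times the lowest. Ifi27, whose deposited interval lies inside that of Ifi27l2a, was at 29.9 CPM in WT untreated cells, above 23.8 CPM in KO, a log2 difference of -0.33 (FDR = 5.01e-05).

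Rtp4 was also lower in every KO group, but by a ratio that shrank. Untreated WT libraries were at 27.6, 23.8 and 24.1 CPM and KO libraries at 9.89, 8.48 and 8.05 CPM, so KO was at 35.0% of WT. At OVA 4 h WT libraries were at 52.7, 55.3 and 53.0 CPM and KO libraries at 22.2, 26.4 and 25.6 CPM, 46.0% of WT. At Jurkat 4 h WT libraries were at 170.7, 197.2 and 186.6 CPM and KO libraries at 151.9, 151.8 and 156.8 CPM. There KO was at 83.1% of WT, a log2 difference of -0.27 (SE 0.115) that was -0.19 when scaled by total counts alone. A steadily low level is thus not a description that holds for Rtp4 after 4 h with Jurkat cells.

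At 30 min Rtp4 was at 23.1, 20.5 and 27.4 CPM in WT and 10.3, 9.82 and 8.98 CPM in KO under OVA. Under Jurkat cells it was at 26.8, 24.9 and 23.1 CPM in WT and 17.9, 8.85 and 10.4 CPM in KO, with replicate 1 again the high library. The KO against WT log2 difference there was -1.01 with that library and -1.37 without it, while for Ifi27l2a it was -1.38 and -1.40. KO OVA 4 h, at a mean of 24.7 CPM, overlapped with WT OVA 30 min and WT Jurkat 30 min in the order of levels. The highest group mean was 21.0 times the lowest.

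**Figure D1:**
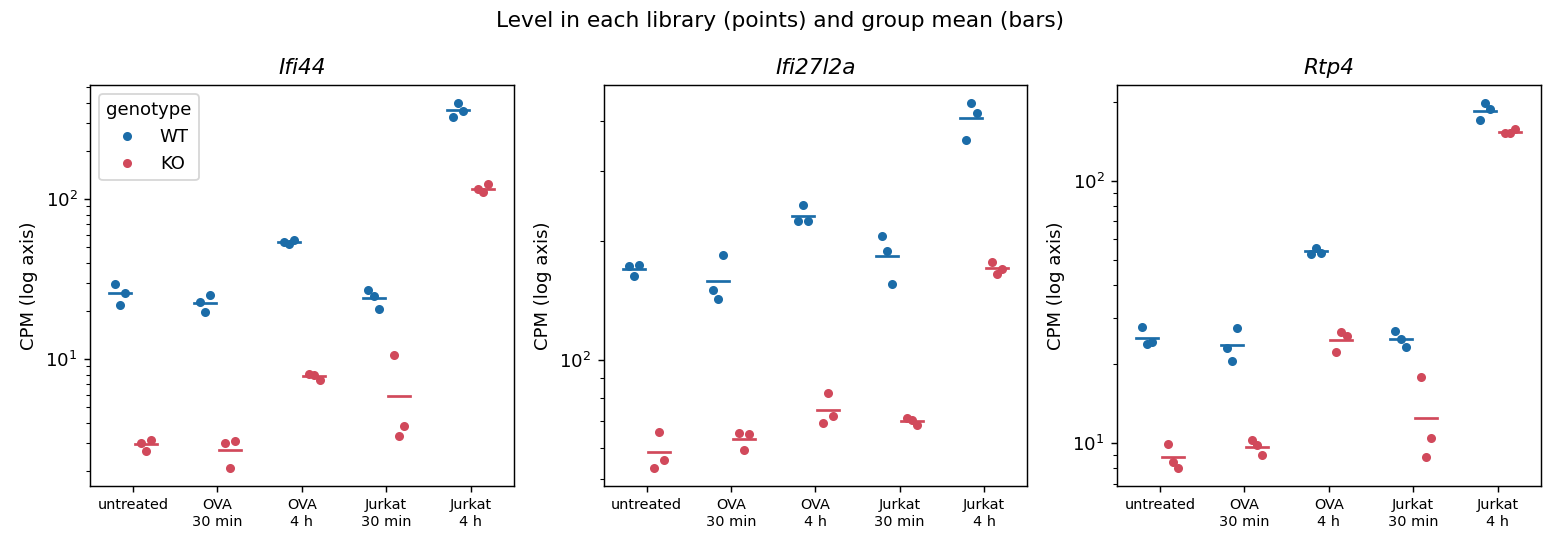
Level of Ifi44, Ifi27l2a and Rtp4 in CPM on a log axis, with 1 point for each library and a bar at the mean of each group of 3, WT in blue and KO in red. The KO points lie below the WT points of the same condition in every panel, closest for Rtp4 at Jurkat 4 h (151.8 to 156.8 against 170.7 to 197.2 CPM), and 1 of the 3 KO Jurkat 30 min points is high for Ifi44 and Rtp4.

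For the 3 tested genes, every KO library lay below every WT library in all 5 conditions, 15 of 15 comparisons. The share of all tested genes with that separation was 11.8% untreated, 14.9% at OVA 30 min, 16.8% at OVA 4 h, 12.3% at Jurkat 30 min and 20.4% at Jurkat 4 h, and 1.38% (205 genes) showed it in all 5. Since the genes were chosen on these levels, nothing is read from the count. Averaged over the 5 conditions, the log2 differences were -2.54 for Ifi44, -1.43 for Ifi27l2a and -1.03 for Rtp4. These were the 1st, 16th and 50th lowest values of 14808. In bulk RNA, fewer cells of a type and less RNA per cell cannot be told apart.

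**Figure D2:**
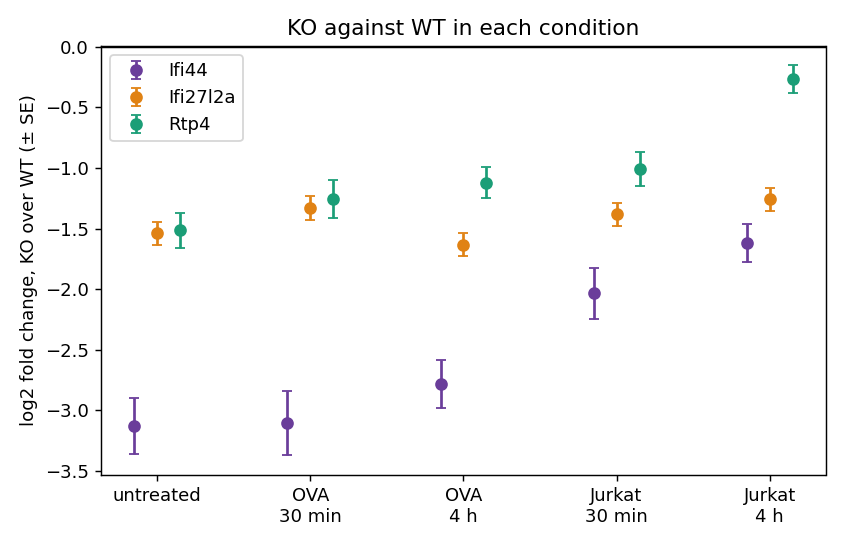
KO against WT log2 fold change of the 3 genes in each condition, with bars for the standard error of the fit to 30 libraries. Ifi44 runs from -3.13 untreated to -1.62 at Jurkat 4 h, Ifi27l2a stays between -1.63 and -1.26, and Rtp4 goes from -1.52 to -0.27.

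Ifi44, Ifi27l2a and Rtp4 were higher after 4 h with OVA than in untreated cells in both genotypes, and none was called after 30 min. The labels give no time for the untreated libraries. In any comparison with them, the added material and the time or handling that went with it cannot be told apart. In WT at 4 h, Ifi44 rose by 1.07 on the log2 scale (SE 0.170, FDR = 2.34e-05), Rtp4 by 1.09 (SE 0.127, FDR = 1.88e-07) and Ifi27l2a by 0.45 (SE 0.0914, FDR = 0.000514). That is 3 of 3 tested genes, where 23.5% of all genes were called in either direction and 11.9% were higher. In KO at 4 h, Ifi44 rose by 1.42 (SE 0.270, FDR = 0.000598) and Rtp4 by 1.49 (SE 0.148, FDR = 2.98e-08). Ifi27l2a rose by 0.35 (SE 0.0954, FDR = 0.0141), a call that was lost without KO OVA 4 h replicate 2 (0.28, FDR = 0.103), KO untreated replicate 1 (0.29, FDR = 0.0840) or KO untreated replicate 3 (0.32, FDR = 0.0661). These 3 of 3 stand beside 11.6% of all genes called in KO, 5.94% of them higher.

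At OVA 30 min 0 of 3 were called in WT, where 10.7% of all genes were, and 0 of 3 in KO, where 3.77% were. In both genotypes the count was also 0 at an unadjusted p under 0.05 in edgeR and 0 by DESeq2. The log2 values in WT were -0.19 for Ifi44, -0.10 for Ifi27l2a and -0.09 for Rtp4, and in KO -0.17, 0.11 and 0.17.

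All 3 genes rose far more after 4 h with apoptotic Jurkat cells. In WT, Ifi44 rose by 3.80 on the log2 scale (SE 0.175, FDR = 4.53e-18), Rtp4 by 2.88 (SE 0.128, FDR = 2.12e-18) and Ifi27l2a by 1.27 (SE 0.0923, FDR = 2.67e-13). In KO, the rises were 5.31 for Ifi44 (SE 0.221, FDR = 4.56e-19), 4.12 for Rtp4 (SE 0.143, FDR = 5.29e-21) and 1.55 for Ifi27l2a (SE 0.0955, FDR = 6.3e-15). Most genes moved at this time: 79.5% were called in WT and 78.5% in KO, 38.9% and 37.5% of all genes as higher. Scaling by total counts moved the median of all genes in this comparison to -0.42 in WT and -0.37 in KO, so rises are relative to that median. Against OVA for the same 4 h, Jurkat cells gave higher levels of 3 of 3 genes in each genotype. Of all genes 77.5% were called in WT and 76.4% in KO, 37.2% and 36.3% of all genes as higher. These differences were 2.74 for Ifi44, 0.82 for Ifi27l2a and 1.78 for Rtp4 in WT, and 3.90, 1.19 and 2.64 in KO.

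At Jurkat 30 min 0 of 3 were called in WT, where 28.7% of all genes were, with 0 at an unadjusted p under 0.05 in edgeR and 0 by DESeq2. In KO, Ifi44 was higher by 1.001 (SE 0.282, FDR = 0.0135) and Rtp4 by 0.49 (SE 0.157, FDR = 0.0297), 2 of 3 where 17.0% of all genes were called, 8.72% as higher. Both calls rested on replicate 1, the library that stood apart: without it the values were 0.27 (FDR = 0.427) and 0.13 (FDR = 0.543). The Ifi44 call was also lost without KO untreated replicate 2 (0.94, FDR = 0.0540), and the Rtp4 call without KO untreated replicate 2 (0.47, FDR = 0.0914) or 3 (0.43, FDR = 0.122). Ifi27l2a gave 0.27 (FDR = 0.0548), and was called without a filter on low counts (0.26, FDR = 0.0359), with only the groups compared in the fit (0.27, FDR = 0.0411) and without KO untreated replicate 2 (0.36, FDR = 0.0197). With only the groups compared in the fit, Ifi44 (1.008, FDR = 0.133) and Rtp4 (0.50, FDR = 0.191) were not called.

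Jurkat cells against OVA at 30 min gave 1 of 3 calls in KO, where 10.2% of all genes were called, 5.30% as higher. This was Ifi44, at 1.17 (FDR = 0.0164), and the call was lost without KO Jurkat 30 min replicate 1 (0.44, FDR = 0.253) or KO OVA 30 min replicate 2 (0.97, FDR = 0.130), and with only the groups compared in the fit (1.16, FDR = 0.138). Rtp4, at 0.32, was called only without KO Jurkat 30 min replicate 2 (0.52, FDR = 0.0374) among the alternatives run. In WT 0 of 3 were called, where 24.3% of all genes were; edgeR gave 1 at an unadjusted p under 0.05 (Ifi27l2a) and DESeq2 called 0. Without WT Jurkat 30 min replicate 3 or WT OVA 30 min replicate 3, Ifi27l2a was called there, at 0.30 (FDR = 0.0176) and 0.32 (FDR = 0.0134).

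Side by side, the fitted response in KO was the larger in 11 of 12 pairs of gene and treatment. That is a description without a test, because the untreated KO and WT levels helped choose the genes. No share over all genes was taken beside it, so nothing is read from the count. All 4 responses within a genotype share its untreated libraries. At Jurkat 4 h the response in KO minus that in WT was 1.51 for Ifi44 (SE 0.290), 1.25 for Rtp4 (SE 0.187) and 0.28 for Ifi27l2a (SE 0.131). At OVA 4 h it was 0.35 (SE 0.323), 0.39 (SE 0.195) and -0.10 (SE 0.132) in the same gene order. At OVA 30 min it was 0.03 (SE 0.399), 0.26 (SE 0.217) and 0.21 (SE 0.134) in that order. At Jurkat 30 min it was 1.10 for Ifi44 (SE 0.333), 0.51 for Rtp4 (SE 0.206) and 0.16 for Ifi27l2a (SE 0.132). Without KO replicate 1 it was 0.37 for Ifi44 and 0.15 for Rtp4.

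**Figure D3:**
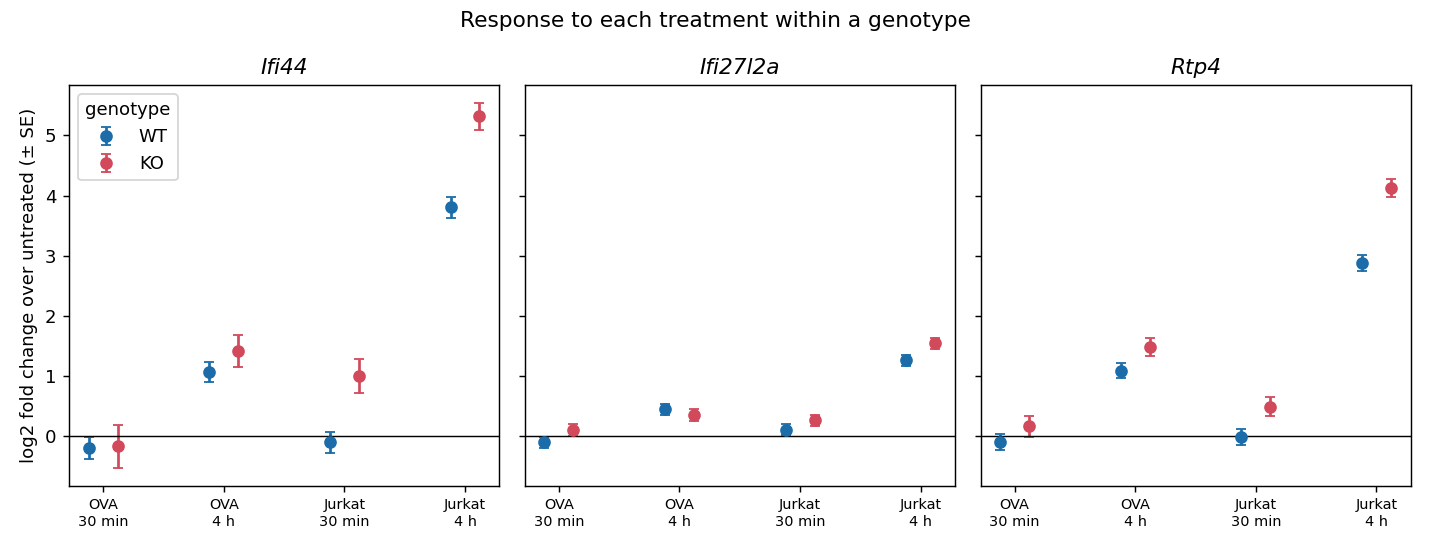
Log2 fold change over the untreated libraries of the same genotype for each treatment, with bars for the standard error, WT in blue and KO in red. Values near 0 at OVA 30 min and the rise at Jurkat 4 h, to 3.80 in WT and 5.31 in KO for Ifi44, stand out in the panels.

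Upstream in the pathway, the receptor and kinases differed little between untreated genotypes while several transcription factors were lower in KO. Neither receptor gene was called: Ifnar1 was at 360.0 (KO) and 379.0 (WT) CPM, and Ifnar2 at 345.4 and 361.5 CPM. Irf7, a factor that amplifies interferon production, was at 74.3 CPM in KO but 157.3 CPM in WT (log2 difference -1.08, SE 0.151). Usp18, which restrains signalling at the receptor, was at 22.7 and 49.96 CPM (-1.14, SE 0.219). Irf9 (-0.35), Irf1 (-0.24) and Stat2 (-0.23) were also called lower. In all, 6 of 18 pathway genes were lower in untreated KO and 0 higher, where 9.97% of all genes were called and 3.97% were lower. This list was also made with earlier results of these data known, so its counts are a description.

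The number of pathway genes called lower in KO was 8 at OVA 30 min, 7 at OVA 4 h, 3 at Jurkat 30 min (4 without KO replicate 1) and 11 at Jurkat 4 h, and 0 were higher in each. Of all genes tested, 6.13%, 6.35%, 3.67% and 13.5% were called lower in these 4 comparisons, so the share was also largest at Jurkat 4 h. Interferon beta, Ifnb1, was counted in no untreated library. At Jurkat 4 h it was at 12.5 CPM in WT and 3.68 CPM in KO, a log2 difference of -1.77 (SE 0.218). Interferon alpha genes are near-identical copies, so their counts are uncertain. Ifna4 was at 4.35 CPM in WT there, against 1.13 CPM in KO. At OVA 30 min every KO library lay below every WT library for both receptor genes. The means there were 384.6 (KO) against 445.8 CPM (WT) for Ifnar1 and 329.1 against 368.6 CPM for Ifnar2. At Jurkat 4 h both receptor genes were called lower in KO. Ifnar1 differed by -0.18 (458.9 CPM against 518.9 CPM in WT, FDR = 0.00115) and Ifnar2 by -0.28 (243.0 against 294.5 CPM, FDR = 3.08e-06). Of the kinases, Tyk2 was lower (-0.14, FDR = 0.0165) and Jak1 (-0.05) was not called.

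Among 40 other interferon-stimulated genes, 37 were lower and 0 higher in untreated KO, with a median log2 difference of -0.72 against -0.01 for all genes tested. The list was made with earlier results of these data known, so its KO against WT counts are a description. The counts lower in KO were 32 at OVA 30 min (median -0.68), 40 at OVA 4 h (-0.86), 17 at Jurkat 30 min (-0.14) and 29 at Jurkat 4 h (-0.45). At Jurkat 30 min 2 were higher, and without KO replicate 1 31 were lower and 0 higher there (median -0.47). The share of all genes called in either direction in these 4 comparisons was 12.4%, 12.6%, 9.25% and 22.9%, and the share called lower was 6.13%, 6.35%, 3.67% and 13.5%. By class, 6 of 6 OAS genes, which make or resemble makers of the activator of RNase L, were lower in untreated KO (median -1.57), as were 16 of 18 antiviral effectors (-0.84), 4 of 5 PYHIN genes (-1.07) and 3 of 3 RNA sensors (-0.68).

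Ifi44 had the lowest value among the 43 interferon-stimulated genes in 4 of the 5 conditions and the second lowest at Jurkat 4 h. Ifi44, Ifi27l2a and Rtp4 were chosen for being lower in KO, so their ranks are a description only. Nearest to Ifi44 by the mean of 5 conditions were Ifi208, a PYHIN gene (-2.09), and Oas1g (-1.72), followed in the list of 40 by Oasl2 (-1.11). Those nearest to 0 were Ifi205 (-0.25), Dtx3l (-0.25) and Samd9l (-0.29). Ifi27l2a ranked between 3rd and 8th lowest of the 43. Rtp4 ranked 9th lowest untreated, 4th at Jurkat 30 min and 36th at Jurkat 4 h.

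**Figure D4:**
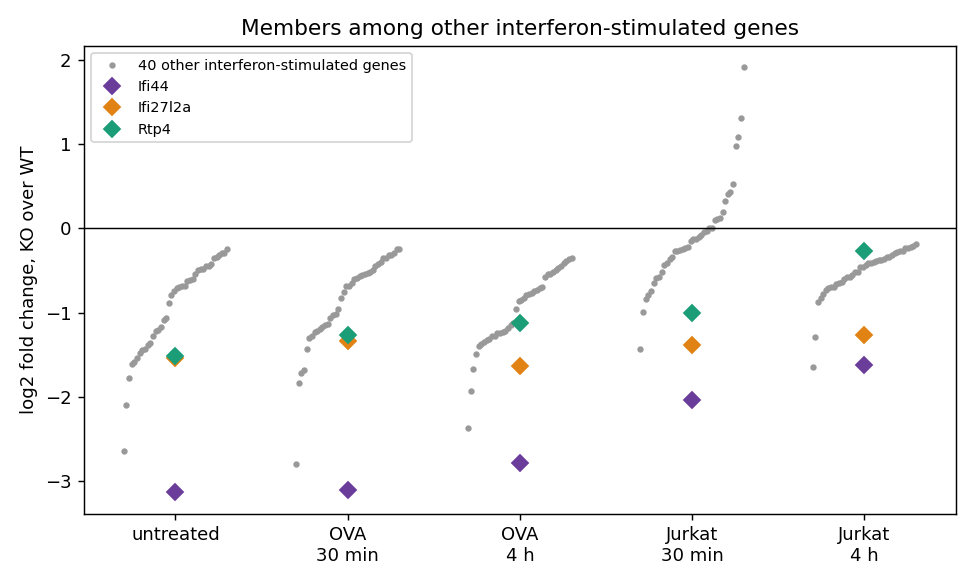
KO against WT log2 fold change in each condition for 40 other interferon-stimulated genes (grey points, sorted) and for Ifi44, Ifi27l2a and Rtp4 (diamonds), which were chosen for being lower in KO. Ifi44 lies below all grey points in 4 conditions, Rtp4 moves up among them to -0.27 at Jurkat 4 h, and at Jurkat 30 min some grey points lie above 0, where 2 genes were called higher.

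In the treatment comparisons the same list was called higher in 36 of 40 genes at OVA 4 h in WT (median 0.78) and 34 in KO (0.75), and in 40 of 40 at Jurkat 4 h in both (3.56 and 4.01). The largest rises at Jurkat 4 h were those of Rsad2, which encodes viperin, by 8.16 in WT and 8.72 in KO, and Oasl1, by 7.57 and 8.65. At OVA 4 h they were Rsad2 (3.42 in WT, 3.32 in KO) and Ifit1 (2.78 and 2.68). The rises of Ifi44 by 3.80 and Rtp4 by 2.88 in WT at Jurkat 4 h thus lay on either side of the list's median, and that of Ifi27l2a by 1.27 lay below it. In KO, Ifi44 (5.31) and Rtp4 (4.12) both lay above the list's median there, and Ifi27l2a (1.55) lay below it. At Jurkat 30 min 19 were called higher in KO, against 9 higher and 2 lower without replicate 1, while in WT 0 were higher and 4 lower, among them Oas2 (-0.57) and Dtx3l (-0.48). At OVA 30 min 0 were called in WT (4 at an unadjusted p under 0.05 in edgeR, 1 by DESeq2) and 1 in KO, Ifitm3 (0.19).

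The pattern of each gene was compared with that of 10229 genes with a mean of at least 5 CPM, by Pearson's r of log2 CPM over the 30 libraries, which share treatment groups and so are not independent points. Ifi44 was most like Ly6a (r = 0.991), Oas1g (0.986) and Ifi208 (0.973). Ifi27l2a was most like Ly6c2 (0.964), Ly6a (0.956) and H2-M3 (0.944), and Rtp4 was most like Trim34a (0.989), Oasl2 (0.987) and Oas2 (0.986). Between the 3 genes r was 0.961 for Ifi44 with Rtp4, 0.939 for Ifi44 with Ifi27l2a and 0.830 for Ifi27l2a with Rtp4. These values include the KO against WT difference on which the genes were chosen, so they are a description only. In likeness to Rtp4, Ifi44 ranked 59th and Ifi27l2a 1787th. After the mean of each genotype was subtracted, the 3 values of r became 0.990, 0.969 and 0.966. Ifi44 then ranked 2nd and Ifi27l2a 170th for Rtp4, while Rtp4 ranked 12th and Ifi27l2a 198th for Ifi44. The genes then most alike were Isg15 (0.994), Gbp6 and Oasl2 (both 0.993) for Ifi44, and Ly6a (0.984), Cd52 (0.982) and Zfas1 (0.978) for Ifi27l2a. For Rtp4 they were Oas1g and Ifi44 (both 0.990) and Trim34a (0.989). By Spearman's correlation only 1 of the 3 genes was found again for Ifi44 in both forms, for Rtp4 over all libraries and for Ifi27l2a after subtraction.

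Genes beside them on the chromosome had smaller or opposite differences. Ppp4r4, 88.9 kb above Ifi27l2a, had group means of at most 0.33 CPM and was not called (log2 -0.89 to -0.07). Ddx24, 8.01 kb from Ifi27l2a, was at 98.5 CPM in untreated KO against 114.4 CPM in WT, and was called lower in all 5 conditions by -0.13 to -0.28. Bcl6, the nearest tested gene above Rtp4 at 350.8 kb, was not called in any (-0.04 to 0.05). Masp1, the nearest below it at 89.3 kb, had group means of at most 0.34 CPM and was called higher in KO untreated (1.91, FDR = 0.00841) and at Jurkat 30 min (1.96, FDR = 0.00852). Adgrl4 and Ptgfr, on either side of the Ifi44 pair, had group means of at most 1.87 CPM, and where called they were higher in KO. Rtp4 and Rubcn both lie on chromosome 16, 9.21 Mb apart. Of 47 tested genes between them, 8.51% were called in untreated KO against WT, beside 9.97% of all genes, and 17.0% beside 12.6% at OVA 4 h, the only 1 of the 5 conditions where the share between them was the higher.

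Markers of several cell types differed between the genotypes alongside these genes. Over the 5 conditions, 9.25% to 22.9% of all tested genes were called in either direction and 3.67% to 13.5% were called lower. Genes called higher are part of the first share, and their own share is not given here. The marker lists were made with earlier results of these data known, so the counts are a description. The summed level of 8 plasmacytoid dendritic cell markers was 1881 to 1925 CPM in the untreated WT libraries, above the 1697 to 1835 CPM of the KO libraries. The ranges did not overlap in any of the 5 conditions, and 3 to 5 of the 8 genes were called lower in KO and 1 higher. All 8 were above 1 CPM in every group. The 6 basophil and mast cell markers were all called higher in KO in all 5 conditions, with an untreated sum of 54.8 to 85.3 CPM in KO against 21.5 to 27.8 CPM in WT. Neutrophil markers were called lower in 0 to 5 of 7 genes, most at Jurkat 4 h, where they summed to 112.4 to 117.5 CPM in KO against 144.1 to 150.1 CPM in WT. In untreated cells the neutrophil sums overlapped (106.3 to 137.7 CPM in KO, 134.5 to 153.7 CPM in WT). Monocyte and macrophage markers were lower in 1 to 4 of 8 genes, most at OVA 4 h (1125 to 1176 CPM in KO, 1254 to 1423 CPM in WT). Their untreated sums overlapped (783.0 to 1002 CPM in KO, 911.3 to 990.2 CPM in WT). Of 7 markers of conventional dendritic cells type 1, 1 to 2 were called higher in KO and 1 to 3 lower. Called higher in KO were 2 to 5 of 7 markers of conventional dendritic cells type 2, with 1 lower untreated and at OVA 30 min, and 1 to 3 of 6 B cell markers. Of 7 stromal markers, 4 to 6 were higher in KO, with untreated sums of 545.8 to 625.9 CPM in WT and 700.9 to 880.1 CPM in KO. The 5 general dendritic cell markers were present in all groups. T-lineage markers, which Jurkat cells express, summed to 89.9 to 96.1 CPM in WT untreated libraries and 103.8 to 111.4 CPM in KO ones. At Jurkat 30 min they summed to 149.8 to 156.1 CPM in WT and 127.0 to 141.8 CPM in KO, and at Jurkat 4 h to 209.0 to 254.0 CPM in WT and 177.1 to 203.9 CPM in KO. Of the 22 tested, 5 were called higher in KO untreated and at both OVA times, with 1 lower at OVA 30 min. At Jurkat 30 min 2 were called higher and 5 lower, and at Jurkat 4 h 0 higher and 6 lower. Themis alone of these markers was at 0 in a group, KO OVA 4 h. The part of these differences in the levels of Ifi44, Ifi27l2a and Rtp4 was not tested.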

How the data were processed

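Raw read counts per gene for 30 libraries were deposited by the authors in 1 table. Per the submitters' processing notes, STAR 2.5, Subread with featureCounts 1.5.0-p1, DESeq2 and the mm10 build were used; no source used here gives the annotation or strand setting. Genes passing edgeR's filterByExpr by group (14808, holding 99.99% of counts) were fitted in 1 quasi-likelihood model of 10 group means over all 30 libraries (R 4.3.3, edgeR 4.0.16, TMM factors). Standard errors are the absolute log2 change over the square root of F, and calls are at a Benjamini-Hochberg FDR under 0.05. CPM used TMM-scaled totals. The fitting method was tested on simulated data only for OVA 4 h against untreated in WT, and not in the model of all 30 libraries. Alternatives were DESeq2 1.42.0, other size factors, other filters, replicate blocks, the compared groups alone and leaving out each library. The genes and all lists were chosen with earlier results of these data known. Named beside them were the pathway and family genes, the list genes with the 3 lowest and 3 nearest-to-0 mean differences and the 2 largest called rises and falls per treatment at 5 CPM or more, the 3 genes most alike in pattern, and the nearest tested neighbours. Counting intervals and limits cover counting error only. One pathway gene is counted in its list but not reported here by name.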

Additional observations from a re-analysis of the deposited data

How the results depend on the processing

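The 3 of 3 calls at OVA 4 h in WT and at Jurkat 4 h in both genotypes were the same under every alternative run. The KO against WT separations cannot be broken by leaving out a library or by another filter or fit, so those alternatives say nothing about them. Leaving out single libraries gave 2 to 3 calls at OVA 4 h in KO, 0 to 2 at Jurkat 30 min in KO, and, for Jurkat cells against OVA at 30 min, 0 to 2 in KO and 0 to 1 in WT. With only the groups compared in the fit, the KO calls became 1 at Jurkat 30 min (Ifi27l2a, with Ifi44 and Rtp4 lost) and 0 for Jurkat cells against OVA at 30 min. For the 40 other interferon-stimulated genes that fit called 4 (KO) and 14 (WT) at Jurkat 30 min, 3 (KO) and 8 (WT) for Jurkat cells against OVA at 30 min, 9 for KO against WT at Jurkat 30 min and 1 at OVA 30 min in WT. DESeq2 also called 1 at OVA 30 min in WT. Leaving out single libraries, the counts ran from 11 to 28 (KO) at Jurkat 30 min, 9 to 29 (KO) and 2 to 5 (WT) for Jurkat cells against OVA at 30 min, 14 to 31 for KO against WT at Jurkat 30 min, and 0 to 2 in either genotype at OVA 30 min. Values that were not called changed sign without 1 library. For Ifi44 these ran from -0.21 to 0.016 at Jurkat 30 min in WT and from -0.35 to 0.034 at OVA 30 min in KO. For Rtp4 they ran from -0.037 to 0.52 (KO, 0.32 with all libraries and called at 0.52) and from -0.020 to 0.19 (WT) for Jurkat cells against OVA at 30 min, from -0.070 to 0.054 at Jurkat 30 min in WT and from -0.21 to 0.0048 at OVA 30 min in WT. The cause was not tested. Deviations of same-numbered libraries were at most weakly related (r from -0.12 to 0.15, 0 of 17 contrasts with every pair over 0.1). The same-numbered library was the most alike for 0 to 3 of 3 libraries per contrast. Whether same-numbered libraries share a mouse, culture or batch cannot be told from these values. With a replicate block the calls stayed at 3, 3, 2 and 3 for OVA 4 h and Jurkat 4 h in WT, Jurkat 30 min in KO and Jurkat 4 h in KO, and a replicate block within genotype called 1 of the 40 genes at OVA 30 min in WT. Depth limits Ifi44l most, at 5 counts or fewer per library, and then Ifi44 in the shallowest library, at 32 counts.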
